A study of Homo sapiens with 2 samples.

Results

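The genes described here are the transcription factor NRF2, encoded by NFE2L2, its repressor KEAP1, and 32 genes known as NRF2 targets in redox, glutathione, NADPH and drug metabolism. They were taken by symbol, 34 of the 58302 genes listed for each library. RNA-seq of A549, an established human lung adenocarcinoma line, gave 1 library from cells labelled as overexpressing PGC-1α, a transcriptional coactivator encoded by PPARGC1A, and 1 library from cells labelled as the control. Both were grown in F12K medium with serum, and the labels give no construct, clone or time. A549 is known to carry a loss-of-function mutation of KEAP1, which both libraries share and which counts per gene cannot show. With 1 library per group there is no replicate check and no p-value, and the 95% intervals below cover counting error only.

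NRF2 is held at a low level in most cells because KEAP1 brings it to the CUL3 ubiquitin ligase. Oxidants, electrophiles or loss of KEAP1 let NRF2 accumulate, pair with a small MAF protein and bind antioxidant response elements near genes that make glutathione, NADPH, quinone and carbonyl reductases, and export pumps. Lung tumours with mutant KEAP1 are known for a high constant output of these targets.

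The PGC-1α library held 24334768 counts and the control library 27125084. PPARGC1A (chromosome 4, 23755041 to 23904089) had 4654 counts in the PGC-1α library and 5 in the control, which fits the labels of both libraries. Transcripts of the mitochondrial genome took 8.32% of counts in the PGC-1α library and 6.22% in the control. The keratin genes KRT8, KRT18 and KRT7 stood between 1291 and 3899 CPM (counts scaled to library size) in the PGC-1α library and between 1375 and 3868 CPM in the control, while CDKN2A, which A549 is known to have lost, had 0 counts in both. Among them KRT7 had 2616 CPM in the PGC-1α library and 2086 CPM in the control. Of the other epithelial genes, EPCAM had 4.88 CPM in the PGC-1α library and 3.26 CPM in the control, KRT19 had 29.8 CPM in the PGC-1α library and 65.5 CPM in the control, and CDH1 had 24.8 CPM in the PGC-1α library and 48.0 CPM in the control. All 5 immune and all 4 endothelial markers had at most 3 counts in either library, and the 5 fibroblast markers summed to 3.14 CPM in the PGC-1α library and 2.93 CPM in the control.

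Antioxidant response elements share a core that can be written TGACNNNGC, and the windows below are shown because they carry it before a RefSeq start of a member without touching an annotated exon. RefSeq promoters on GRCh38.p14, from 250 bases before to 50 bases after a gene's start, were matched for 25 of the 34 members, as 32 promoters. The core was found on either strand, with overlapping matches allowed, in 10 of these 32 promoters, or 31.25%, and in 13.3% of 35116 promoters of the same length. These promoters belonged to 9 members, namely CBR1, EPHX1, GCLM, GPX2, KEAP1, ME1, PGD, PIR and TXNRD1, among them 2 of the 3 members whose ratio was above 1, CBR1 and GPX2. Each line gives 41 bases in the direction of the gene, 5′ to 3′, with the core in capitals. The EPHX1 window (chr1:225825260-225825300, plus strand) has it 78 bases before the start and the ME1 window (chr6:83431164-83431204, minus strand) 137 bases before it. The PGD window (chr1:10398847-10398887, plus strand) holds it on the opposite strand, 201 bases before the start, and the TXNRD1 window (chr12:104215664-104215704, plus strand) has it 99 bases before the start. The RefSeq starts of EPHX1 and PGD lie inside the spans listed in the files, which begin at 225810092 for EPHX1 and 10398592 for PGD, so these windows lie upstream of an internal start.
EPHX1: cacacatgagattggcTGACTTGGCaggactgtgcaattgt
ME1: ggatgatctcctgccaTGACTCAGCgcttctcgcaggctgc
PGD: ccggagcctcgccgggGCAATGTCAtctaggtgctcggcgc
TXNRD1: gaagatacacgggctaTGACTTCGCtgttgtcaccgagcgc
A match to these letters is a description of the sequence and does not show binding.

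Most NRF2 pathway genes were lower in the PGC-1α library, by amounts that were mostly small. The normalised ratio of PGC-1α over control was below 1 for 31 of 34 members, and the median log2 ratio was -0.25. Only 3 members differed at least 1.5-fold with an interval that excluded a ratio of 1, AKR1C1, AKR1B10 and EPHX1, and all 3 were lower. Of the 14154 measured genes, those averaging 1 CPM or more, 3.92% were lower and 5.30% higher by the same rule, and 51.0% had a ratio below 1, with a median log2 ratio of -0.01. A level of at most 80% of the control, with an interval that excluded a ratio of 1, was met by 11 of 34 members and 9.35% of all measured genes, and a level at least 25% above the control by 0 members and 11.3% of all measured genes. No member was 2-fold apart.

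All 34 members passed the filter of 1 CPM, and 33 of them stood at or above 50 CPM, a level at which most genes differed less. Among the 4288 genes of at least 50 CPM, 54.5% had a ratio below 1, 1.24% were at least 1.5-fold lower and 5.39% at or under 80% of the control. Most of the most abundant genes of these libraries were lower: of 489 genes of at least 300 CPM, 62.8% had a ratio below 1. Their median log2 ratio was -0.06, while their summed counts had a log2 ratio of 0.03. Of the 22 members above the same level 21 had a ratio below 1, with a median of -0.28. How far depth and level set these shares was not tested.

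**Figure D1:**
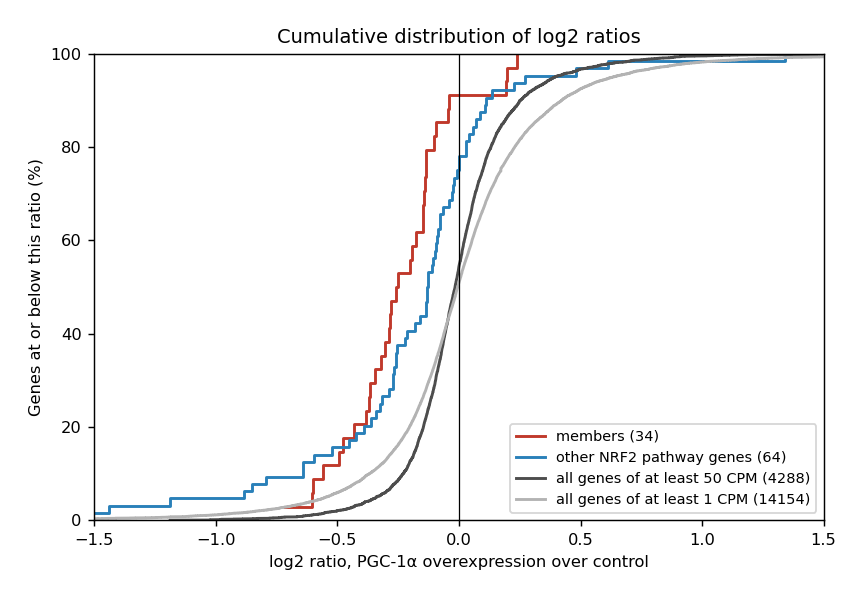
Cumulative share of genes, in percent on the vertical axis, at or below each log2 ratio of PGC-1α over control on the horizontal axis, for the 34 members, 64 other measured NRF2 pathway genes, 4288 genes of at least 50 CPM and 14154 genes of at least 1 CPM. The members' curve lies left of both curves of all genes between log2 ratios of -0.60 and 0, and 31 of 34 members lie below a ratio of 1.

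Of the regulators among the members, NFE2L2 was slightly lower and KEAP1 was close to the control. NFE2L2 (ENSG00000116044, chromosome 2, 177227595 to 177392697, GRCh38) stood at 70.3 CPM in the PGC-1α library and 80.4 CPM in the control, a log2 ratio of -0.19 (-0.29 to -0.10). KEAP1 (ENSG00000079999, chromosome 19, 10486120 to 10503741) stood at 107 CPM in the PGC-1α library and 110 CPM in the control, a log2 ratio of -0.04 (-0.12 to 0.03), so a difference was not detectable at this depth. The listed span of NFE2L2 overlaps AGPS on the opposite strand, which is more abundant and had a log2 ratio of 0.05, and no strand setting is given for the counting. NRF2 activity is known to be set mainly by the stability of the protein, which RNA counts do not measure.

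The aldo-keto reductases, which use NADPH to reduce carbonyl groups of steroids, lipid aldehydes and drugs, had the lowest median of any role. All 5 were lower, 2 of them by at least 1.5-fold, and the median log2 ratio was -0.56. AKR1C1 (ENSG00000187134, chromosome 10, 4963253 to 4983283) had 528 CPM in the PGC-1α library and 870 CPM in the control, a log2 ratio of -0.72 (-0.75 to -0.69). AKR1B10 (ENSG00000198074, chromosome 7, 134527592 to 134541408), a reductase of retinal and lipid aldehydes, had 1737 CPM in the PGC-1α library and 2639 CPM in the control, a log2 ratio of -0.60 (-0.62 to -0.59). Both intervals lay far from a ratio of 1, while that of AKR1B10 ended almost at the 1.5-fold line.

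The other 3 reductases did not reach 1.5-fold. AKR1B1, aldose reductase of the polyol pathway, had 1958 CPM in the PGC-1α library and 2882 CPM in the control, a log2 ratio of -0.56 (-0.57 to -0.54). AKR1C3, which also makes prostaglandin F and testosterone, had 991 CPM in the PGC-1α library and 1393 CPM in the control, a log2 ratio of -0.49 (-0.52 to -0.47). AKR1C2 had 2748 CPM in the PGC-1α library and 3435 CPM in the control, a log2 ratio of -0.32 (-0.34 to -0.31). The AKR1C genes lie beside each other on chromosome 10 and the AKR1B genes on chromosome 7, and all 5 members of these clusters stood below the control.

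Reads of the AKR1C genes are hard to tell apart. Of the 50-base words in the longest coding transcript of AKR1C2, 52.2% also occur in another gene's transcripts, mostly AKR1C1, and for AKR1C1 the share was 28.7%. The difference between the ratios of AKR1C1 and AKR1C2 is therefore uncertain. With the counts of AKR1C1, AKR1C2, AKR1C3 and the rare AKR1C4 summed, there were 103309 counts in the PGC-1α library and 155429 in the control, a log2 ratio of -0.42 (-0.43 to -0.41). AKR1B10 shared 11.6% of its words with AKR1B15, and the sum of this pair kept a log2 ratio of -0.60 (-0.62 to -0.59).

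**Figure D2:**
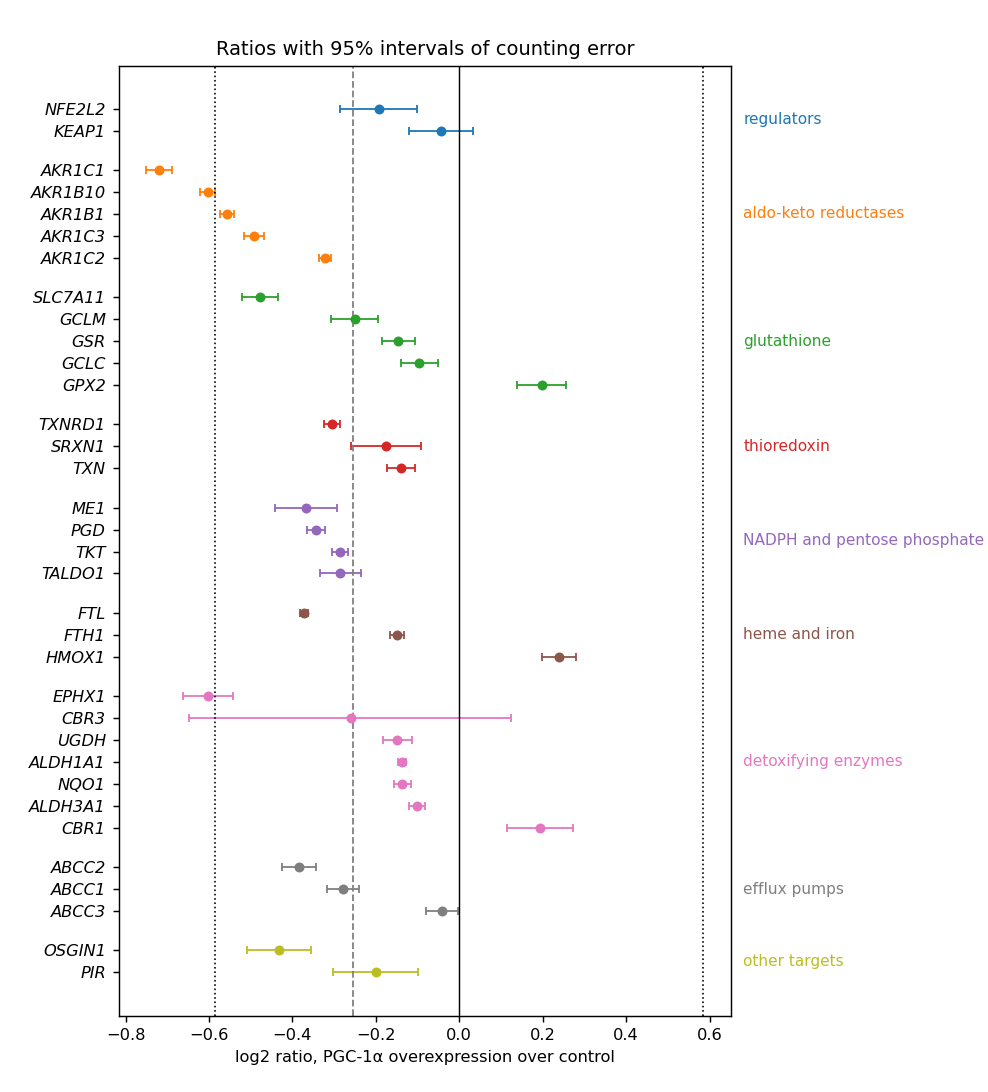
Log2 ratio of PGC-1α over control on the horizontal axis for the 34 members, with bars for exact 95% intervals of counting error, grouped by role. Dotted lines mark 1.5-fold, the solid line a ratio of 1 and the dashed line the members' median of -0.25; all 5 aldo-keto reductases lie left of that median and GPX2, HMOX1 and CBR1 lie right of a ratio of 1.

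Genes of glutathione supply ranged from lower to higher, none by 1.5-fold. SLC7A11, the cystine importer that feeds glutathione synthesis, had 295 CPM in the PGC-1α library and 411 CPM in the control, a log2 ratio of -0.48 (-0.52 to -0.44). GCLM, the modifier subunit of glutamate-cysteine ligase, had 181 CPM in the PGC-1α library and 215 CPM in the control, a log2 ratio of -0.25 (-0.31 to -0.19). GCLC, the catalytic subunit of the same enzyme, differed less, with 300.3 CPM in the PGC-1α library and 321 CPM in the control and a log2 ratio of -0.10 (-0.14 to -0.05). The intervals of the 2 subunits did not overlap, but they cover counting error only, and whether the subunits differ between cultures was not tested. GSR, which regenerates reduced glutathione from NADPH, had 374 CPM in the PGC-1α library and 414 CPM in the control, a log2 ratio of -0.15. GPX2, an epithelial glutathione peroxidase, was higher, with 197 CPM in the PGC-1α library and 172 CPM in the control and a log2 ratio of 0.20 (0.14 to 0.26).

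The thioredoxin genes were each slightly lower. TXNRD1, the NADPH-dependent reductase that recharges thioredoxin and whose promoter window is printed above, had 1450 CPM in the PGC-1α library and 1791 CPM in the control, a log2 ratio of -0.31 (-0.33 to -0.29). TXN, thioredoxin itself, had 534 CPM in the PGC-1α library and 589 CPM in the control, a log2 ratio of -0.14 (-0.17 to -0.11). SRXN1, which repairs overoxidised peroxiredoxins, had 84.3 CPM in the PGC-1α library and 95.3 CPM in the control, a log2 ratio of -0.18 (-0.26 to -0.09). Of the 50-base words of SRXN1, 84.8% also occur in AL121758.1, which had 18 counts in the PGC-1α library and 22 in the control. How reads that fit both genes were counted is not given, so the level of SRXN1 is uncertain.

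The NADPH and pentose phosphate genes lay closest together, from -0.37 to -0.29 on the log2 ratio scale. ME1, malic enzyme, had 101 CPM in the PGC-1α library and 130.2 CPM in the control, a log2 ratio of -0.37 (-0.44 to -0.29). PGD, the 6-phosphogluconate dehydrogenase of the oxidative branch, had 1232 CPM in the PGC-1α library and 1565 CPM in the control, a log2 ratio of -0.34 (-0.37 to -0.32). Both have a promoter window with the element core, printed above. TKT, transketolase of the non-oxidative branch, had 1628 CPM in the PGC-1α library and 1986 CPM in the control, a log2 ratio of -0.29. TALDO1, transaldolase of the same branch, had 242 CPM in the PGC-1α library and 295 CPM in the control, also a log2 ratio of -0.29.

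Heme and iron genes split. HMOX1, heme oxygenase, which opens the heme ring and frees its iron, had 403 CPM in the PGC-1α library and 342 CPM in the control, the highest log2 ratio of any member at 0.24 (0.20 to 0.28). FTL, the ferritin light chain that stores iron, had 6255 CPM in the PGC-1α library and 8091 CPM in the control, a log2 ratio of -0.37 (-0.38 to -0.36). FTH1, the ferritin heavy chain with the ferroxidase site, had 2004 CPM in the PGC-1α library and 2222 CPM in the control, a log2 ratio of -0.15 (-0.17 to -0.13). Of the 50-base words of FTH1, 78.7% occur in other genes, 62.3% in BEST1 alone, which had 30 counts in the PGC-1α library and 19 in the control. The counting of reads that fit several genes is not given, so the level of FTH1 is uncertain. The listed FTH1 pseudogenes summed to 430 counts in the PGC-1α library and 535 in the control, while FTH1 itself had 48507 counts in the PGC-1α library and 60607 in the control.

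Detoxifying enzymes held the remaining called member. EPHX1 (ENSG00000143819, chromosome 1, 225810092 to 225845563), the microsomal epoxide hydrolase, had 145 CPM in the PGC-1α library and 221 CPM in the control, a log2 ratio of -0.60 (-0.66 to -0.54). It shared 0% of its 50-base words with other genes, and the overlapping TMEM63A had 17.4 CPM in the PGC-1α library and 18.2 CPM in the control. The interval of EPHX1 excluded a ratio of 1 but included 1.5-fold.

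The remaining detoxifying enzymes stood nearer to the control. NQO1, the quinone reductase often used as a readout of NRF2, had 1468 CPM in the PGC-1α library and 1615 CPM in the control, a log2 ratio of -0.14 (-0.16 to -0.12). ALDH1A1, a retinal dehydrogenase, had 6018 CPM in the PGC-1α library and 6619 CPM in the control, a log2 ratio of -0.14. ALDH3A1, which oxidises aromatic and lipid aldehydes, had 1692 CPM in the PGC-1α library and 1816 CPM in the control, a log2 ratio of -0.10. The intervals of these 3 abundant genes lay above those of all 5 aldo-keto reductases, by counting error alone and with no measure of spread between cultures. UGDH, which makes UDP-glucuronate for conjugation, had 495 CPM in the PGC-1α library and 548.5 CPM in the control, a log2 ratio of -0.15. CBR1, a carbonyl reductase, had 107 CPM in the PGC-1α library and 93.4 CPM in the control, a log2 ratio of 0.19 (0.11 to 0.27). Its neighbour CBR3 was the lowest member, with 100 counts in the PGC-1α library and 135 in the control, and its log2 ratio of -0.26 (-0.65 to 0.12) left a difference not detectable at this depth. Other genes share 35.7% of the 50-base words of CBR3, 22.1% of those of CBR1 and 18.1% of those of NQO1.

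The 3 efflux pumps, which carry glutathione and glucuronide conjugates out of the cell, were unequal. ABCC2 had 349.9 CPM in the PGC-1α library and 457 CPM in the control, a log2 ratio of -0.38 (-0.42 to -0.34). ABCC1 had 387 CPM in the PGC-1α library and 469.8 CPM in the control, a log2 ratio of -0.28 (-0.32 to -0.24). ABCC3 had 405 CPM in the PGC-1α library and 416 CPM in the control, a log2 ratio of -0.04 (-0.08 to -0.002), the smallest difference of the 3. The last 2 members were OSGIN1, an oxidative stress-induced growth inhibitor, and PIR, a nuclear iron-binding protein. OSGIN1 had 95.1 CPM in the PGC-1α library and 128 CPM in the control, a log2 ratio of -0.43 (-0.51 to -0.36), and PIR had 58.1 CPM in the PGC-1α library and 66.7 CPM in the control, a log2 ratio of -0.20 (-0.30 to -0.10).

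**Figure D3:**
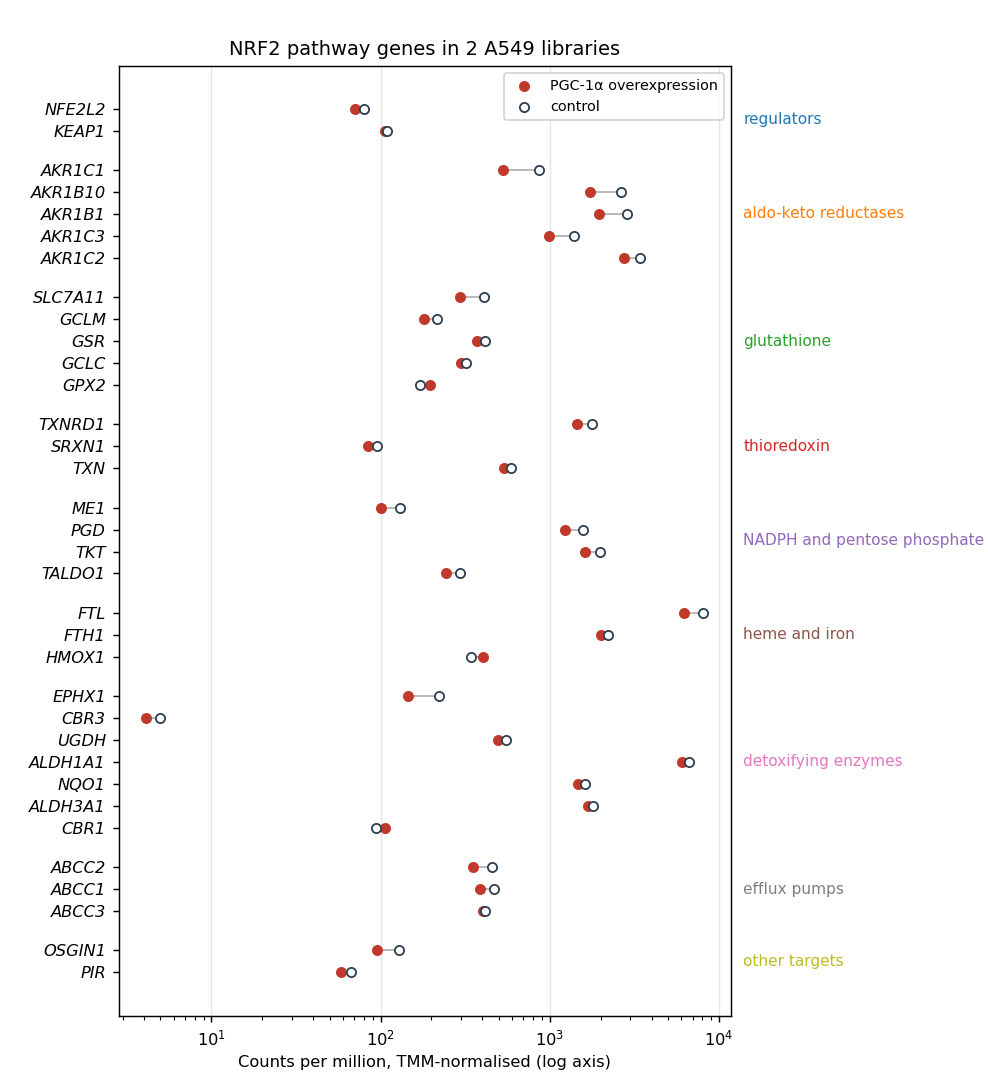
Levels of the 34 members in the PGC-1α library (filled points) and the control library (open points), in TMM-normalised CPM on a log axis, grouped by role. Levels run from CBR3, under 5 CPM in both libraries, to FTL, at 6255 CPM in the PGC-1α library and 8091 CPM in the control; the filled point lies left of the open one for all members but GPX2, HMOX1 and CBR1.

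Per length, several members were among the most expressed genes of both libraries. By the deposited FPKM, which divides counts by gene length and library size, FTL stood at 7076 in the PGC-1α library, rank 6 of 14154 measured genes, and at 9278 in the control, rank 2. ALDH1A1 stood at 2098 FPKM in the PGC-1α library, rank 17, and at 2339 FPKM in the control, rank 14. AKR1B10 had rank 30 in the PGC-1α library and rank 19 in the control, and FTH1 had rank 31 in the PGC-1α library and rank 29 in the control. NFE2L2 itself stood at 11.7 FPKM in the PGC-1α library, rank 3783, and at 13.5 FPKM in the control, rank 3370. FPKM depends on the listed gene length, which for AKR1C1 was 8765 bases and for AKR1B10 1744 bases, so the order of these genes by FPKM leans against AKR1C1.

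The 34 members together took 3.45% of all counts in the PGC-1α library and 4.27% in the control, a log2 ratio of -0.29 after normalisation. Aldo-keto reductases took 0.792% of counts in the PGC-1α library and 1.13% in the control, with a summed log2 ratio of -0.49. Heme and iron genes took 0.862% in the PGC-1α library and 1.07% in the control, with a summed log2 ratio of -0.30. Detoxifying enzymes took 0.988% in the PGC-1α library and 1.10% in the control, with a summed log2 ratio of -0.14. These 3 roles made up most of the members' share. All other roles summed to ratios between -0.35 and -0.11, so each role as a sum stood below the control.

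**Figure D4:**
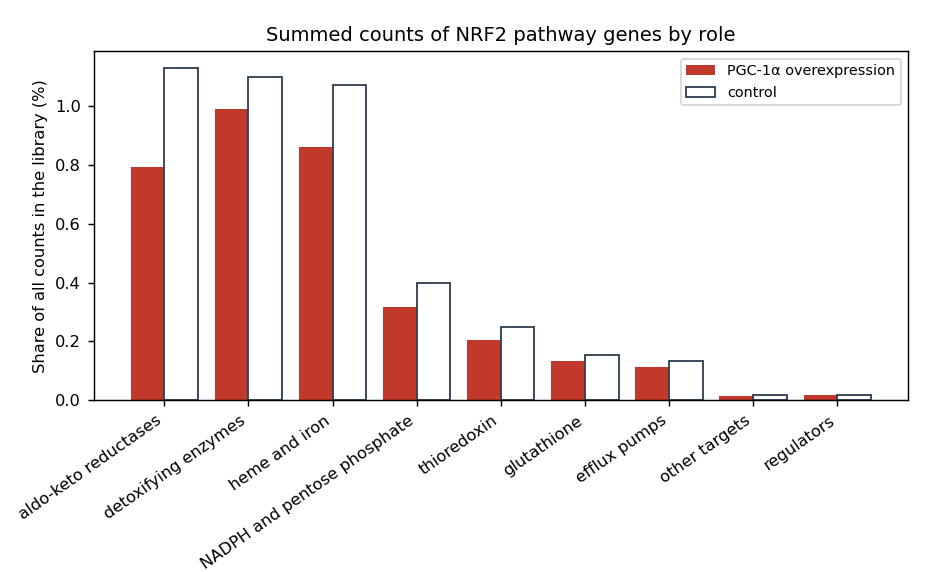
Share of all counts, in percent, taken by each role's members in the PGC-1α library (filled bars) and the control library (open bars). Aldo-keto reductases differ most, at 0.792% in the PGC-1α library and 1.13% in the control, and have the highest share of any role in the control but not in the PGC-1α library.

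A further 72 genes of the pathway, none of them a member, were listed as other regulators and targets, and 64 were measured. Of these, 8 were at least 1.5-fold lower and 1 at least 1.5-fold higher, beside 3.92% and 5.30% of all measured genes. A ratio below 1 was found for 50 of the 64, beside 51.0% of all measured genes and 54.5% of those of at least 50 CPM. Their median log2 ratio was -0.13. None of the 20 measured regulators was 1.5-fold apart. MAFG, the small MAF partner of NRF2 and itself a known target, had 121 CPM in the PGC-1α library and 174 CPM in the control, a log2 ratio of -0.52 (-0.59 to -0.46). BACH1, a repressor that competes for the same elements, had 15.9 CPM in the PGC-1α library and 21.4 CPM in the control, a log2 ratio of -0.42 (-0.61 to -0.24). SQSTM1, the autophagy adaptor p62 that binds KEAP1, had 890 CPM in the PGC-1α library and 1126 CPM in the control, a log2 ratio of -0.34 (-0.37 to -0.31). CUL3, scaffold of the ligase that KEAP1 serves, was nearly equal, with 92.8 CPM in the PGC-1α library and 92.9 CPM in the control and a log2 ratio of -0.001 (-0.08 to 0.08). MAFK, named after its value was seen, stood apart from MAFG at 0.48 (0.42 to 0.54).

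Of the called genes among these other targets, 3 were more than 2-fold lower and 1 more than 2-fold higher, while no member was 2-fold apart. CYP4F11, a cytochrome P450 known to be high in KEAP1-mutant lung lines, had 74 counts in the PGC-1α library and 293 in the control, a log2 ratio of -1.81 (-2.20 to -1.44). AOX1, aldehyde oxidase, had 72 counts in the PGC-1α library and 221 in the control, a log2 ratio of -1.44 (-1.85 to -1.06). CES1, a carboxylesterase, had 41.2 CPM in the PGC-1α library and 93.9 CPM in the control, a log2 ratio of -1.19 (-1.30 to -1.08). CYP4F11 and AOX1 stood near or under 10 CPM, a level at which large ratios were more common among all genes.

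The other lower targets lay between 1.5-fold and 2-fold. CYP4F3 stood at -0.88 on the log2 ratio scale, GSTM3, a glutathione transferase, at -0.85, AKR1B15 at -0.79 and ABCG2, a drug efflux pump, at -0.60. AKR1B15 had only 201 counts in the PGC-1α library and 393 in the control, beside 42046 and 71969 for AKR1B10. It shares 11.3% of its 50-base words with AKR1B10, so its counts and ratio are uncertain. NR0B1, the orphan receptor DAX1 known from KEAP1-mutant lung cancer cells, had 52.6 CPM in the PGC-1α library and 82.0 CPM in the control, a log2 ratio of -0.64 (-0.74 to -0.54). GSTM4, another glutathione transferase, was the higher gene, with 22.8 CPM in the PGC-1α library and 9.02 CPM in the control and a log2 ratio of 1.34 (1.12 to 1.56). GSTM4 and GSTM2 overlap in the files and share sequence with other GSTM genes, so their counts are uncertain. Of the words of CES1, 31.1% occur in its pseudogene CES1P1, which had 4 counts in the PGC-1α library and 10 in the control.

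**Figure D5:**
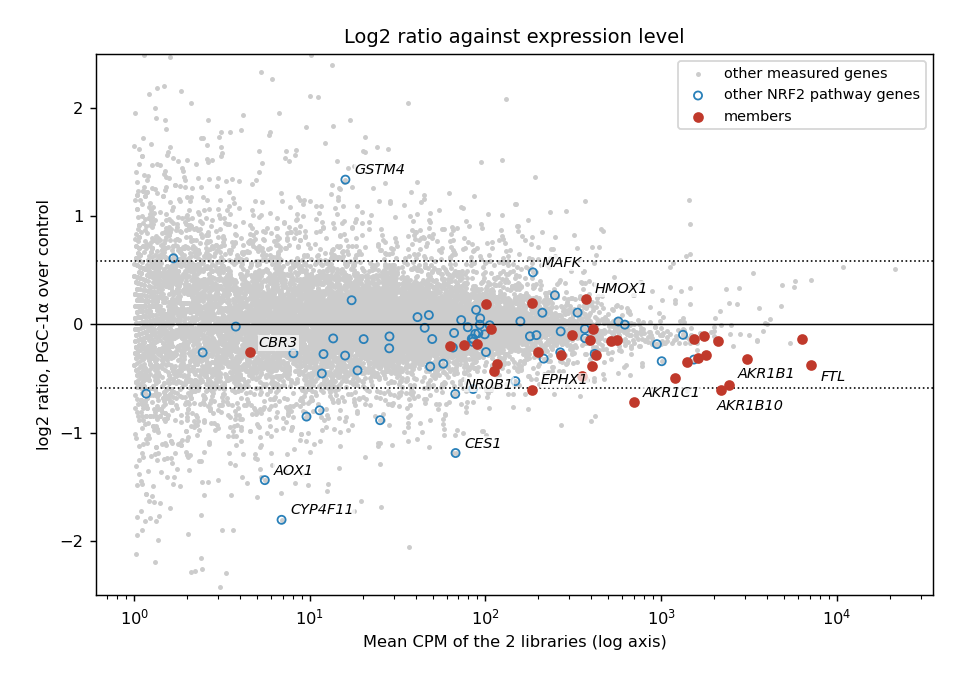
Log2 ratio of PGC-1α over control against the mean CPM of both libraries on a log axis, for the 34 members (filled), 64 other measured NRF2 pathway genes (open) and the other measured genes (grey); 30 genes beyond a log2 ratio of 2.5 in either direction are not drawn. Dotted lines mark 1.5-fold; AKR1C1, AKR1B10 and EPHX1 are the members past the lower one, and none is past the upper one.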

How the data were processed

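Per the file headers, the authors deposited for each library a table of raw counts per gene and a table of FPKM, with symbols, coordinates, strand and lengths. The submitters' processing notes name Cuffdiff 2.1.1, Cufflinks 2.1.1, TopHat2 2.0.9 and Bowtie2 2.0.6, with no role. How the counts were made, on which build and with which strand setting, is not given in the sources used here. Listed start, end and strand of 32 of the 34 members equalled those of GENCODE release 29 on GRCh38, so coordinates are read as GRCh38.

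Counts were scaled to CPM with TMM factors of 0.995 for the PGC-1α library and 1.01 for the control (edgeR 4.0.16, R 4.3.3). A gene was measured if it averaged 1 CPM or more. Log2 ratios used counts plus 0.5, and 95% intervals are exact Clopper-Pearson intervals of the split of both counts. They hold no error but that of counting, and PCR reads that carry no molecular identifiers are not independent molecules. A gene was called at 1.5-fold with an interval that excluded a ratio of 1. With 1 library per group no residual degrees of freedom remain, so edgeR's quasi-likelihood test was not fitted. A limit of 3 counts corresponds to 0.124 CPM in the PGC-1α library and 0.110 CPM in the control.

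Words of 50 bases were compared over GENCODE transcripts on both strands; promoters came from RefSeq, GRCh38.p14, and windows that touch an exon of GENCODE release 29 were not printed. The members and lists were chosen with earlier results of these data known, and the levels of 50 and 300 CPM after seeing the data. Every member is named; other pathway genes are named where called, with MAFG, BACH1, CUL3 and SQSTM1, with MAFK after its value was seen, and with GSTM2 and AKR1C4 beside genes whose sequence they share. Python 3.11.15 was used with pandas 2.3.3, scipy 1.17.1, matplotlib 3.10.9 and numpy 2.4.6.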

Additional observations from a re-analysis of the deposited data

How the results depend on the processing

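No paired analysis was possible because each group held 1 library. Scaling was varied with DESeq2 size factors, library totals with or without mitochondrial counts, and the deposited FPKM plus 0.1 or 1. Counts were also used with no filter and with a filter of 5 CPM. Under each of these settings the same 3 members, AKR1C1, AKR1B10 and EPHX1, were at least 1.5-fold lower and 0 were higher. Ratios were below 1 for 31 of 34 members, or for 30 of the 33 that passed the filter of 5 CPM. The members' median log2 ratio ran from -0.27 to -0.24 under these settings, and the median of all genes moved by under 0.1. The largest shift of a member's log2 ratio was 0.036. Such settings rescale or filter the same counts, so they do not stand in for replicates. Without mitochondrial counts EPHX1 stood at -0.5854 and AKR1B10 at -0.5861, barely past 1.5-fold. With the AKR1C counts summed the log2 ratio was -0.42, short of 1.5-fold. Other pathway genes called lower numbered 7 without mitochondrial counts and 6 with FPKM plus 1, against 8 as reported. At 2-fold, 0 of 34 members, 3 of 64 measured other pathway genes and 164 of 14154 measured genes were lower. At that level 1 other pathway gene and 248 of all genes were higher. The settings of 80%, 25% and widened intervals below have the same totals. With a level of at most 80% of the control, 11 members, 15 other pathway genes and 1323 of all genes, or 9.35%, were lower. With one at least 25% above it, 2 other pathway genes and 1597 of all genes, or 11.3%, were higher. With intervals widened for a coefficient of variation of 0.2 between cultures, an assumed value, 0 members, 5 other pathway genes and 219 of all genes were lower and 328 higher, so no member's call holds against that spread. Without a filter, 2 other pathway genes were higher, and of 28660 genes with any count 885 were lower and 1301 higher. With at least 5 CPM, which left 11094 genes, 267 were lower and 382 higher. With FPKM plus 1, 215 of the same 14154 measured genes were lower and 275 higher, called by fold alone without an interval. Counts of CBR3 and of other genes near 1 CPM limit what their intervals can show.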

Other observations

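Families of drug-metabolising genes, taken by symbol after the data had been seen and partly shared with the NRF2 lists, differed in both directions. Of 10 measured AKR genes, 3 were at least 1.5-fold lower and 0 higher, beside 3.92% lower and 5.30% higher among all measured genes. Their ratios were below 1 for 9 of 10, with a median log2 ratio of -0.52. All 3 called genes, AKR1C1, AKR1B10 and AKR1B15, were already described above, so this family adds no further call. Of 12 measured glutathione transferase genes, 1 was lower and 3 higher, with a median of 0.25. GSTK1, a transferase of mitochondria and peroxisomes, had 92.3 CPM in the PGC-1α library and 56.9 CPM in the control, a log2 ratio of 0.70 (0.61 to 0.79). MGST2, a microsomal transferase, had 36.1 CPM in the PGC-1α library and 22.8 CPM in the control, a log2 ratio of 0.66 (0.51 to 0.81).

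Of 15 measured ALDH genes, 2 were higher and 0 lower, beside 5.30% and 3.92% of all measured genes, with a median log2 ratio of -0.04. ALDH1A3, a retinal dehydrogenase, had 36.1 CPM in the PGC-1α library and 22.0 CPM in the control, a log2 ratio of 0.71 (0.56 to 0.86). ALDH5A1, the mitochondrial succinic semialdehyde dehydrogenase, had 23.5 CPM in the PGC-1α library and 14.7 CPM in the control, a log2 ratio of 0.68 (0.49 to 0.86). Of 19 measured cytochrome P450 genes, CYP4F11, CYP4F12 and CYP4F3 were lower and CYP4V2 was higher at 0.93. Among these 19 genes 10 had a ratio below 1, with a median log2 ratio of -0.02. CYP4F12 had 58 counts in the PGC-1α library and 127 in the control, a log2 ratio of -0.95 (-1.43 to -0.50). The UGT, SULT, ABC transporter, PRDX and GPX, CES and NUDT families were also counted and are not described here.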
